A study of Mus musculus with 15 samples.

Results

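Small colonies of cultured mouse heart stromal cells were compared at the far ends of the experiment: grown with PDGF-AB to passage 15 (3 arrays, "late") against untreated at passage 5 (3 arrays, "early"), 6 of the 15 arrays of the series. Every array held RNA of cardiac colony-forming unit fibroblasts (cCFU-F) from C57BL/6 mice labelled male and 12 weeks old, sorted as SCA1+PDGFRα+CD31- cells and then expanded as large or small colonies. The treatment was 50 ng/ml PDGF-AB, and no small colonies left untreated to passage 15 were analysed here. Passage and treatment therefore differ together, the part of each cannot be told apart, and the comparison gives the net change from the starting small colonies. A middle group, small colonies with PDGF-AB at passage 5 (3 arrays), lies between them and divides the net change into a treatment step and a passage step, and untreated large colonies at passages 5 and 15 (3 arrays each) give a passage change that shares no array with it. The labels do not say whether the 3 replicates of a group came from separate mice or cultures, and the spread behind each p-value may therefore be technical only.

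Heart stroma holds cells (cCFU-F) able to found a colony when plated sparsely, and those that found large colonies are usually the ones that keep growing over long culture. PDGF-AB is a dimer of the PDGF A and B chains, and it signals through the receptor tyrosine kinases PDGFRα and PDGFRβ, which drive division and migration of fibroblasts through the Ras-ERK and PI3K pathways. Repeated passage of primary mouse fibroblasts usually ends in senescence, a lasting arrest held by the p53 and p16 (Cdkn2a) pathways and often accompanied by secretion of proteases and cytokines, unless cells escape it.

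Values are log2 intensities of array probe sets, so a difference of 1 is a 2-fold change, and levels of different genes are not on a shared scale. Array medians were 5.59 to 5.64 in the early, 5.64 to 5.66 in the middle and 5.70 to 5.72 in the late arrays, and the median gene changed by 0.0617 between early and late. Arrays of a group correlated at 0.997 to 0.998 and early with late arrays at 0.972 to 0.975, so no array stood apart. Of the genes of the sorted markers Pdgfra averaged 6.66 and Pecam1, which encodes CD31, 4.31 in the early arrays, where the median gene level was 6.00. A level under the median gene marks a dim probe set, and these values alone do not test the identity of the cells. Ly6a, the gene of SCA1, was not analysed here. Over the 15 arrays 4 Y-linked genes lay between 2.24 and 3.42 and Xist, the RNA that silences an X chromosome in female cells, between 8.93 and 10.88, which goes against the labelled sex in all groups alike.

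The late colonies differed from the early ones in many genes: of 19938 genes tested 10901 (54.7%) passed an adjusted p of 0.05, 5909 higher (29.6%) and 4992 lower (25%). After cyclic loess normalization between arrays 9149 passed it, and 1359 when the change was tested against 1.5-fold. Changes of at least 2-fold were fewer, 360 genes higher (1.81%) and 607 lower (3.04%). Of the gene lists described below, 23 of 24 mitosis and 22 of 26 DNA replication genes were in the first of these sets, and 11 of 19 interferon response, 9 of 16 senescence-linked secreted factor and 8 of 16 cholesterol synthesis genes in the second. In 12189 genes (61.1%) the 3 late arrays all lay outside the range of the 3 early arrays. The direction depended on the level. Among the 9969 genes below the median level 3557 rose and 718 fell, with a median change of 0.14. Among the 9969 at or above it 2352 rose and 4274 fell, with a median of -0.10. The counts of list members below stand against these shares, and many pathway lists lie mostly at or above the median level. Of all calls 54.2% were higher, against 47.6% after cyclic loess normalization between arrays, 50.7% after centring on array medians, 36.0% in a fit to the better expressed genes (median level and up) and 35.1% for a change tested against 1.5-fold.

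**Figure D1:**
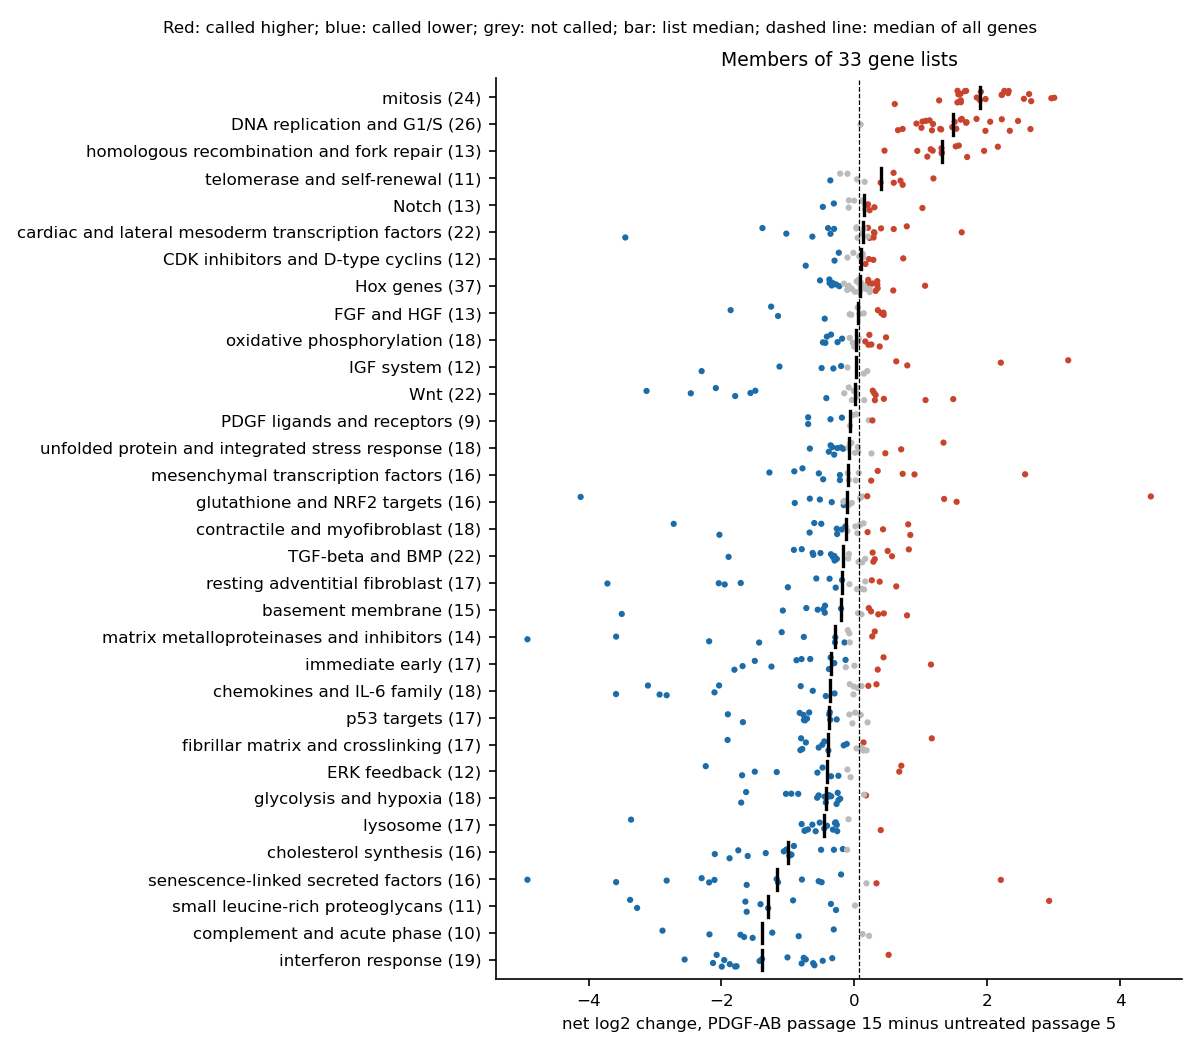
Each point is the net log2 change (late minus early, horizontal axis) of a tested gene of 33 pathway lists, with the number tested in brackets. Red points were called higher, blue lower and grey not called, the bar is the list median and the dashed line the median of all genes (0.0617). The 3 lists of cell division, DNA replication and recombination lie to the right, and cholesterol synthesis, secreted factors, proteoglycans, complement and interferon response to the left.

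Genes of cell division rose together. All 24 of 24 mitosis genes tested were called higher, with a median change of 1.89, where 29.6% of all genes were called higher with a median over all genes of 0.0617. Ccna2, the cyclin of S phase and mitotic entry, was measured at 7.10, 7.12 and 7.11 in the early arrays, 5.80, 5.80 and 5.61 in the middle arrays and 10.08, 10.08 and 10.19 in the late arrays. The late arrays were the highest and the middle arrays the lowest, with no overlap. The net change was 3.01 (SE 0.069; limma, adjusted p = 4.07e-15), an 8.03-fold rise. Kif11, the motor that pushes spindle poles apart, read 6.23, 6.31 and 6.12 early and 9.15, 9.18 and 9.22 late, without overlap, and rose 7.79-fold. Mki67, the gene of the proliferation marker Ki-67, read 6.71 in each of the 3 early arrays and 9.04, 8.77 and 9.09 late, a rise of 2.26 (SE 0.0892). Its deposited early values are identical, as are those of 43 genes early and 36 late, so its SE rests on the spread in the other groups. Other mitosis genes with small adjusted p were Nusap1, which bundles spindle microtubules and rose by 2.21, and the mitotic kinase Plk1, which rose by 2.55. The smallest change of the list was that of the cytokinesis protein Anln, 0.61.

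DNA replication and G1/S genes followed, with 25 of 26 called higher and a median of 1.49. Chaf1b, a subunit of the chaperone that loads histones behind the replication fork, rose from 6.36 to 9.01 (6.27-fold), and the cyclin Ccne2 rose from 4.91 to 7.25. The helicase subunit Mcm6 rose by 1.97 and Rrm2, the regulatory subunit of ribonucleotide reductase, by 1.69. E2f1, which drives many of these genes, was the exception, with a change of 0.09 (SE 0.0674; limma, adjusted p = 0.251). Of the genes of homologous recombination and fork repair 13 of 13 were called higher, median 1.31, among them Fancd2 (1.95), the nuclease Exo1 (2.16), the helicase Brip1 (1.70) and Rad54l (1.18). Only 1 of these 13 lay above the median level of all genes.

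The promoters of 3 mitosis genes and 1 replication gene are shown because these lists moved together and because their best known promoter motifs can be read in them. Mitosis genes are held down in resting cells through the cell cycle homology region (TTTGAA), often beside CCAAT boxes (CCAAT), and replication genes through E2F sites (searched as TTCCCGC, as TTGGCGC or as TTCGCGC). Sequences are from RefSeq (GRCm38.p6), 5′ to 3′ on the strand of the gene, 120 of the 250 bases before the start site, with matches on either strand in capitals. They are Kif11 (chr19:37376262-37376381, plus strand), Top2a (chr11:99024302-99024421, minus strand), Mki67 (chr7:135716458-135716577, minus strand) and Chaf1b (chr16:93883664-93883783, plus strand).
Kif11: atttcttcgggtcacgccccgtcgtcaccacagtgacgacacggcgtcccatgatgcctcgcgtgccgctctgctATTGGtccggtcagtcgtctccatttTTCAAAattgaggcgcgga
Top2a: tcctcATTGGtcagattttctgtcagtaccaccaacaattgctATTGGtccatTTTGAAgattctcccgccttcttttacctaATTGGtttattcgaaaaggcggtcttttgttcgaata
Mki67: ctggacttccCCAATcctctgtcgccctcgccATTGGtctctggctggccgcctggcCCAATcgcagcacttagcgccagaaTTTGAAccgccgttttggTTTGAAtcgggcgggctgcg
Chaf1b: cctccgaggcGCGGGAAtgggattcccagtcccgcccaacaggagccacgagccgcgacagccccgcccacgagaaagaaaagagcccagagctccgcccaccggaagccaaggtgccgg
Within 250 bases before the start site, TTTGAA was found in 6 of 20 mitosis promoters (30%) and in 13.7% of all 15562 promoters of the table, and CCAAT in 16 of 20 (80%) and 35.5%. Both were found in 6 of 20 (30%) and 5.03%. An E2F site was found in 10 of 21 replication promoters (47.6%) and in 9.34% of all. A match is a string of letters and no measurement of binding.

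Among CDK inhibitors, D-type cyclins and their partners, a list of both brakes and drivers, 4 of 12 were called higher and 3 lower (median 0.10). Of all genes 29.6% were called higher and 25% lower. None of the 12 reached 2-fold. Cdkn1a, the gene of the CDK inhibitor p21, was neither in this list nor in that of p53 targets. Cdkn2a, which encodes p16 and p19ARF, read 7.82, 7.82 and 7.56 early, 8.23, 8.13 and 7.98 in the middle group and 7.94, 7.98 and 7.93 late. The third early array lay lowest, and the net rise of 0.22 (limma, adjusted p = 0.025) was lost without it (adjusted p = 0.142) and without the second late array (0.0723). Its neighbour Cdkn2b, the gene of p15, fell by 0.30, after a higher middle level of 9.06 between 8.38 and 8.08. Rb1, the retinoblastoma protein that holds E2F in check, fell by 0.73 (SE 0.0691), and the G1 kinase Cdk6 rose by 0.73. The p53 targets were called lower in 12 of 17 and higher in 0 (median -0.38). Of the 17 targets 16 lie at or above the median level, where 4274 of all 9969 genes were called lower. The antiproliferative gene Btg2 fell from 9.49 to 7.59 (3.74-fold) and the death receptor Fas from 7.13 to 5.46 (3.20-fold). The p53 ubiquitin ligase Mdm2 fell by 0.77 and Trp53inp1 by 0.74. Of 11 telomerase and self-renewal genes 6 rose and 1 fell. The Polycomb methyltransferase Ezh2 rose by 1.19, Klf4 by 0.73 and the chromatin protein Hmga2 by 0.59. Tert, the catalytic subunit of telomerase, was the member that fell, by 0.36, and Nanog rose by 0.59 from an early level of 5.41, below the median gene.

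**Figure D2:**
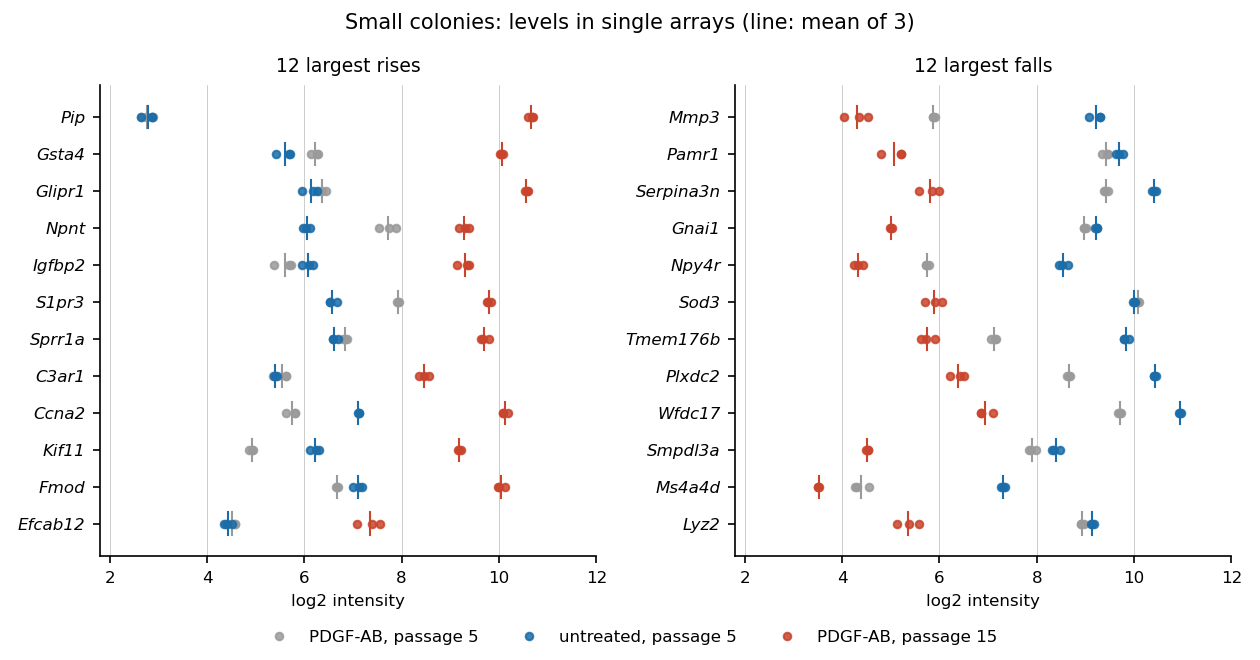
Log2 intensity (horizontal axis) of the 12 genes with the largest rises and the 12 with the largest falls, 1 point per array and a line at the mean of 3, for untreated passage 5 (blue), PDGF-AB passage 5 (grey) and PDGF-AB passage 15 (red). The red points lie apart from the blue in every gene, which the choice of genes required. The grey points lie beside the blue ones for Pip and Sod3 and between the others for S1pr3 and Mmp3.

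Of the named genes the largest rise was that of Pip, prolactin-induced protein, a product of exocrine glands such as the salivary and tear glands. It read 2.65, 2.87 and 2.86 in the early arrays, 2.89, 2.64 and 2.74 in the middle arrays and 10.69, 10.70 and 10.59 in the late arrays. Early and middle arrays lay in the range of the Y-linked genes, and all late arrays lay far above, a difference of 7.86 (SE 0.0891; limma, adjusted p = 2.06e-18) for which no fold is given. Epcam, a defining marker of epithelial cells, read 3.95, 4.13 and 4.11 early and 4.16, 4.31 and 4.17 late (change 0.15, limma, adjusted p = 0.0637). Of 11 epithelial and gland markers 7 were called higher and 1 lower, 4 higher under cyclic loess, and their summed log2 level went from 49.5 to 50.2 early to 59.1 to 59.5 late. Pip itself accounts for 7.86 of that sum, and the part of other cells in its rise was not tested. Gsta4, a glutathione transferase that clears lipid aldehydes, read 5.69, 5.68 and 5.41 early, 6.27, 6.13 and 6.26 in the middle and 10.04, 10.09 and 10.03 late. All late arrays were higher than any other, a 22.0-fold rise. Glipr1, a secreted protein of the CAP family, rose from 6.13 to 10.57 (21.7-fold). In large colonies it was already at 11.98 at passage 5 and at 11.67 at passage 15. Npnt, nephronectin, an integrin ligand of the matrix, rose from 6.04 to 9.29, and S1pr3, a receptor for sphingosine 1-phosphate, from 6.57 to 9.79, changes of 9.49-fold and 9.29-fold. Igfbp2 (3.22), which binds insulin-like growth factors, Sprr1a (3.08), a precursor of the cornified envelope, and C3ar1 (3.06), the receptor of the complement fragment C3a, also rose, as did the collagen-binding proteoglycan Fmod (2.93) and Efcab12 (2.92).

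The largest fall among named genes was that of Mmp3, stromelysin-1, a protease of the extracellular matrix. It read 9.07, 9.31 and 9.30 early, 5.91, 5.87 and 5.86 in the middle and 4.03, 4.35 and 4.54 late, and fell by 4.92 (SE 0.101; limma, adjusted p = 1.11e-15), 30.2-fold. Its late values lay near the arrays' lower quartiles (4.06 to 4.23), so this fold is imprecise. The early arrays were highest, the late arrays lowest, and no groups overlapped. Serpina3n, a secreted inhibitor of serine proteases, fell from 10.41 to 5.80 (24.3-fold) and Pamr1 from 9.70 to 5.07 (24.7-fold). Sod3, the extracellular superoxide dismutase, read 10.02, 9.98 and 10.01 early, 10.08, 10.10 and 10.08 in the middle and 5.69, 6.05 and 5.91 late. Early and middle arrays lay close together and the late arrays 17.4-fold below the early ones. Receptor signalling genes were also here: Gnai1, an inhibitory G protein subunit, fell by 4.22 and Npy4r, a receptor of the neuropeptide Y family, by 4.21. Tmem176b (4.09), Plxdc2 (4.04), Wfdc17 (4.01), Smpdl3a (3.87) and Ms4a4d (3.80) fell as well. Lyz2, the lysozyme best known from macrophages, read 9.14, 9.18 and 9.11 early, 8.90, 8.91 and 8.98 in the middle and 5.37, 5.12 and 5.58 late, a 13.8-fold fall. Of 12 macrophage and leukocyte markers 3 were called higher and 3 lower (median 0.12). Lyz2, Cd14 (1.63) and Cd68 (0.32) fell, and Tyrobp (0.40) was among those that rose. The defining marker Ptprc (CD45) was at 3.89 early and 4.12 late and Adgre1 (F4/80) at 3.43 and 3.52, below the median gene. The summed log2 level of the 12 was 63.4 to 64.3 early and 59.5 to 60.0 late. Lyz2 itself fell by 3.79 in that sum. In such bulk RNA fewer cells of a type and less RNA per cell cannot be told apart.

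The receptors of the added ligand did not move alike. Pdgfra read 6.63, 6.78 and 6.57 early, 6.23, 6.39 and 6.20 in the middle and 6.63, 6.61 and 6.66 late. Early and late arrays overlapped and the middle arrays lay below both. The net change was -0.03 (SE 0.0836; limma, adjusted p = 0.795), and its sign turned under cyclic loess (0.02). Pdgfrb read 11.83, 11.78 and 11.69 early and 11.07, 10.999 and 11.14 late, without overlap, and fell by 0.70 (SE 0.0571; limma, adjusted p = 3.38e-08). Among the ligands Pdgfc fell by 0.36 and Pdgfd by 0.70, and Pdgfb changed by 0.22 without passing the test (limma, adjusted p = 0.0928). Pdgfa fell by 0.19 (limma, adjusted p = 0.0209), a call lost under cyclic loess (adjusted p = 0.286), without the first early array (0.0888) and without the second late array (0.0949). Over the 9 PDGF ligands, receptors and relatives 1 was called higher, Kit by 0.27, and 4 lower.

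Genes that growth factor signalling switches on were mostly lower at the end. Of 17 immediate early genes 12 were called lower and 3 higher, with a median of -0.36. All 17 lie at or above the median level, where 4274 of all 9969 genes were called lower, with a median of -0.10. Fos, a subunit of the AP-1 transcription factor, read 8.08, 8.10 and 7.79 early, 8.99, 8.96 and 8.87 in the middle and 6.49, 6.18 and 6.25 late. The middle arrays were highest and the late arrays lowest, and the net fall was 3.21-fold (limma, adjusted p = 1.08e-10). The orphan receptor Nr4a1 fell by 1.499 and the small Maf protein Maff by 1.81. Fosl1, another AP-1 subunit, went the other way and rose from 9.01 to 10.16. In the PDGF-AB step at passage 5, where 10.7% of all genes were called higher, 11 of the 17 immediate early genes rose. In the passage step under PDGF-AB, where 21.4% were called lower, 13 fell. Of 12 ERK feedback genes 8 fell and 2 rose (median -0.42). The Sprouty inhibitors of receptor tyrosine kinase signalling fell, Spry4 from 7.99 to 6.30 (3.23-fold), Spry1 by 1.498 and Spry2 by 1.17, and the ETS factor Etv1 fell by 2.24. The phosphatases Dusp4 (0.67) and Dusp5 (0.71) were the 2 that rose.

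Small leucine-rich proteoglycans, which bind collagen and growth factors, showed some of the widest changes: 9 of 11 fell, 1 rose, and the median was -1.30. Lum, lumican, read 8.99, 8.93 and 8.89 early, 7.40, 7.14 and 7.26 in the middle and 5.57, 5.54 and 5.58 late, a stepwise fall of 10.4-fold without overlap. Aspn, asporin, fell from 7.20 to 3.93, with the middle arrays at 3.43, 3.54 and 3.26, below the late ones. Late and middle levels lay under the arrays' lower quartiles (4.06 to 4.23), so no fold is given. Prelp fell by 1.41. Fmod was the exception and read 7.13, 7.19 and 6.997 early and 9.99, 10.002 and 10.12 late, a 7.62-fold rise. Of the fibrillar matrix and crosslinking genes 11 of 17 fell and 2 rose (median -0.39). All but 1 of the 17 lie at or above the median level, where 4274 of all 9969 genes were called lower. The adhesion-modulating glycoprotein Tnc fell by 1.91, periostin (Postn) by 0.80 and the lysyl oxidase Loxl1 by 0.81. Col6a3, a chain of the beaded collagen VI, rose by 1.16, and Col1a1, the main chain of collagen I, changed by 0.14 (SE 0.0595; limma, adjusted p = 0.0633).

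Among 14 matrix metalloproteinases and their inhibitors 9 fell and 2 rose. Of these 14, 12 lie at or above the median level, where 4274 of all 9969 genes were called lower and 2352 higher. Besides Mmp3 the collagenase Mmp13 fell from 8.20 to 4.62 (12.0-fold), Mmp10 by 2.19 and Mmp23 by 1.43, while Timp1, an inhibitor of these proteases, rose by 0.31 and Mmp9 by 0.27. Basement membrane genes moved both ways, 8 of 15 lower and 5 higher. Of these 15, 14 lie at or above the median level and stand against the same shares of all genes. The laminin chain Lama4 fell from 8.61 to 5.11 (11.3-fold), Lama5 by 1.08 and the linker Nid2 by 0.72, and Lama2 rose by 0.79.

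Secreted factors often measured in senescent cells were called lower in 13 of 16 and higher in 2 (median -1.16), and 9 fell at least 2-fold, where 3.04% of all genes did. Il6, the gene of interleukin-6, read 7.07, 7.19 and 7.18 early, 8.61, 8.66 and 8.71 in the middle and 4.43, 4.17 and 4.37 late. The middle arrays were highest and the late arrays lowest, and the net fall was 7.08-fold (SE 0.0855 on the log2 scale; limma, adjusted p = 1.21e-13). The late Il6 values lay near the arrays' lower quartiles (4.06 to 4.23), so this fold is imprecise. Igfbp5 fell from 7.26 to 4.97, beside Mmp3 and Mmp13. The 2 that rose were Igfbp3 (2.20) and Cxcl1 (0.33). This list shares genes with those of proteases, chemokines and the IGF system.

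Contractile and myofibroblast genes were called lower in 9 of 18 and higher in 4 (median -0.12). That is near the share of all genes at or above the median level, where 16 of the 18 lie. Of those 9969 genes 4274 were called lower and 2352 higher. Acta2, the smooth muscle actin that marks myofibroblasts, read 12.32, 12.31 and 12.32 early and 12.37, 12.36 and 12.35 late, a change of 0.0447 (SE 0.0464; limma, adjusted p = 0.431). The actin-binding calponin Cnn1 read 8.82, 8.91 and 8.76 early, 10.10, 10.12 and 10.01 in the middle and 5.89, 6.30 and 6.15 late, a 6.58-fold net fall with the middle arrays highest. The myosin light chain kinase Mylk fell by 2.03 and the focal adhesion protein Vcl by 0.67, and Tagln, transgelin, rose by 0.84. In the PDGF-AB step, where 10.7% of all genes were called higher, 14 of the 18 rose. In the passage step, where 21.4% were called lower, 13 fell.

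Interferon response genes, which cells switch on when type I interferon binds its receptor, were lower late in 18 of 19, with a median of -1.39, where 25% of all genes were called lower. Ifit3 read 10.07, 10.07 and 10.03 early, 8.26, 8.32 and 8.36 in the middle and 7.94, 7.95 and 7.89 late. The early arrays were highest and the late arrays lowest, without overlap, and the net fall was 4.37-fold (limma, adjusted p = 2.38e-13). The transcription factor Stat2 fell from 9.19 to 7.32, Oasl2 from 8.21 to 6.14 and Rtp4 from 7.28 to 5.28. Ifit1 fell by 2.55, the widest change of the list. Oasl1, which restrains interferon production, was the only member of the list that rose, by 0.51. The median over the list was -1.27 in the PDGF-AB step at passage 5, where 18 of 19 fell and 18.2% of all genes did, and 0.06 in the passage step, where 4 rose and 4 fell. Of the 12 leukocyte markers, whose levels are given with Lyz2 above, 0 were called higher and 2 lower in the PDGF-AB step, and 4 higher and 2 lower in the passage step.

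The promoters of Ifit1 and Ifit3 are shown because they hold the letters of the interferon-stimulated response element (searched as GAAANNGAAA on both strands), in capitals. They are from RefSeq (GRCm38.p6), Ifit1 at chr19:34640769-34640888, plus strand and Ifit3 at chr19:34583363-34583482, plus strand, 5′ to 3′ on the strand of the gene.
Ifit1: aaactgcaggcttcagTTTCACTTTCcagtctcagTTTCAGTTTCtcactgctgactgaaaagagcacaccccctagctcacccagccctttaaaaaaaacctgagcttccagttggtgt
Ifit3: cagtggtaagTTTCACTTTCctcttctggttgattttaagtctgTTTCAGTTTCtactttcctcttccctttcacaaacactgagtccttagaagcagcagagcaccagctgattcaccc
The element was found in 5 of 14 promoters of the list (35.7%) and in 2.92% of all 15562 promoters.

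Complement and acute phase genes were called lower in 8 of 10 and higher in none (median -1.38). C4b, a component of the classical pathway, fell from 8.29 to 5.41 (7.40-fold) and the protease C1s1 from 10.03 to 7.85 (4.53-fold). The serum amyloid Saa3 fell by 1.71. Cp, the copper carrier ceruloplasmin, read 7.50, 7.50 and 7.46 early, 8.64, 8.66 and 8.65 in the middle and 5.97, 5.94 and 5.94 late, highest in the middle and lowest at the end. Of 18 chemokines and IL-6 family cytokines 10 fell and 2 rose (median -0.36). The monocyte attractants Ccl8 (3.59) and Ccl7 (2.93) fell, as did the cytokine Lif (2.04). Ccl20 (0.21) and Cxcl1 (0.33) rose.

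Transcription factors of the heart and its mesenchyme moved both ways, 9 of 22 cardiac and lateral mesoderm factors higher and 7 lower (median 0.13). Of all genes 29.6% were called higher and 25% lower. Tcf21, a marker and regulator of the cardiac fibroblast lineage, read 8.41, 8.38 and 8.35 early, 9.44, 9.66 and 9.57 in the middle and 4.78, 4.92 and 5.09 late. It was highest in the middle arrays and lowest in the late arrays, without overlap, with a net fall of 10.9-fold (SE 0.0886 on the log2 scale; limma, adjusted p = 1.63e-14). Tbx20 fell in both steps, from 8.61 to 8.16 and 7.23, and Mef2c fell by 1.02. Nr2f2, the nuclear receptor COUP-TFII, rose from 7.61 to 9.22 (3.06-fold). Gata4 fell by 0.31 (limma, adjusted p = 0.0156), a call lost under cyclic loess (adjusted p = 0.132), without the first early array (0.0686) and without the second late array (0.0622). Of 16 mesenchymal factors 5 rose and 7 fell. Zic2, a zinc finger factor of the neural and axial midline, rose from 4.79 to 7.36, and Prrx2 by 0.90. Foxc1 fell by 1.28 and Twist2 by 0.90. Hox genes, which keep a cell's position along the body axis, were called higher in 9 of 37 and lower in 8. Hoxb9 rose by 1.06 and Hoxd8 by 0.58, and Hoxb3 (0.52) and Hoxb4 (0.34) fell. Under cyclic loess 2 were called higher. Of 17 genes of resting adventitial fibroblasts 9 fell and 3 rose. The surface proteins Cd55 (3.72) and Cd34 (1.71), the matrix protein Dpt (2.04) and the semaphorin Sema3c (1.95) fell.

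Of all genes 29.6% were called higher and 25% lower. In the IGF system 4 of 12 genes were higher and 5 lower. Of these 12, 11 lie at or above the median level, where 2352 of all 9969 genes rose and 4274 fell. Igfbp2 read 6.18, 6.10 and 5.94 early and 9.39, 9.13 and 9.35 late (9.29-fold) and Igfbp3 rose from 6.02 to 8.22, while Igfbp5 fell 4.92-fold and the ligand Igf1 fell from 9.61 to 8.48. Igf2 was at 5.59 early, 7.72 in the middle and 5.48 late, so that its net change was -0.10 (limma, adjusted p = 0.27). Of 13 FGF and HGF genes 4 rose and 4 fell, or 6 under cyclic loess. The ligands Fgf18 (1.86), Fgf2 (1.25) and Hgf (1.15) fell and the receptor Fgfr2 rose by 0.44. Of 22 TGF-beta and BMP genes 6 rose and 11 fell (median -0.18). That is near the share of all genes at or above the median level, where 19 of the 22 lie. Of those 9969 genes 2352 rose and 4274 fell. The ligand Bmp4 read 10.59, 10.55 and 10.63 early and 8.76, 8.50 and 8.83 late (3.71-fold lower), Tgfb3 fell by 0.91 and the BMP antagonist Grem1 by 0.63. Id2, a target of BMP signalling, rose by 0.82. Of 22 Wnt genes 7 rose and 7 fell, against 3 and 9 under cyclic loess. The intracellular inhibitor Nkd2 read 9.06, 9.07 and 9.02 early, 9.17, 9.15 and 9.12 in the middle and 5.99, 5.96 and 5.84 late, an 8.74-fold net fall with the late arrays below all others, and the agonist Rspo2 (2.46), the secreted inhibitor Sfrp1 (1.79) and Wnt5a (1.49) fell too. Of 13 Notch genes 5 rose, 1 under cyclic loess, and 2 fell. The glycosyltransferase Lfng, which tunes Notch to its ligands, rose by 1.02, and the receptors Notch2 (0.47) and Notch3 (0.31) fell.

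Cholesterol synthesis genes, which SREBP2 switches on when membranes lack sterol, fell in 15 of 16 and rose in 0, with a median of -0.999. Idi1, which makes the isoprenoid building block dimethylallyl pyrophosphate, read 7.46, 7.44 and 7.54 early, 6.78, 6.68 and 6.63 in the middle and 5.32, 5.49 and 5.33 late. The fall was stepwise and without overlap, 4.29-fold in all (limma, adjusted p = 7.04e-13). The sterol oxidase Msmo1 fell by 1.88, the desaturase Sc5d by 1.61 and Insig1, which retains SREBP in the endoplasmic reticulum, by 1.75. Pmvk was the member not called (-0.11). The list median was -0.50 in the PDGF-AB step and -0.51 in the passage step.

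The promoter of Hmgcs1, which makes the precursor of mevalonate and fell by 1.02, is shown as the promoter of this list that holds the searched sterol regulatory element (TCACNCCAC, both strands), in capitals, from RefSeq (GRCm38.p6) at chr13:119690204-119690323, plus strand, 5′ to 3′.
Hmgcs1: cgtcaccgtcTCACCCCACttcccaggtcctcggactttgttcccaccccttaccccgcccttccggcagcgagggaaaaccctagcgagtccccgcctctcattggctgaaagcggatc
The letters were found in 1 of 13 promoters of the list (7.69%) and in 0.99% of all promoters.

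Glycolysis and hypoxia genes were called lower in 16 of 18 and higher in 1 (median -0.42). Of all genes 25% were called lower, and 4274 of the 9969 at or above the median level. Bnip3, a mitophagy receptor induced by hypoxia, fell from 9.59 to 7.96 (3.09-fold), Pdk1, which keeps pyruvate out of mitochondria, by 1.70, the phosphofructokinase Pfkl by 1.03 and the glucose transporter Slc2a1 by 0.85. Hk1 was the member that rose (0.17). Lysosomal genes were called lower in 15 of 17 and higher in 1 (median -0.45), against the same shares of all genes. The membrane glycoprotein Gpnmb fell from 9.29 to 5.93 (10.3-fold), the cathepsins Ctsb by 0.79 and Ctsz by 0.75 and the hexosaminidase subunit Hexa by 0.74. Ctss rose by 0.40. Oxidative phosphorylation genes were split, 6 higher and 6 lower of 18, none by 2-fold, with Uqcrc1 up by 0.48 and Ndufa1 down by 0.47. Of 18 genes of the unfolded protein and integrated stress response 3 rose and 8 fell. The 3 that rose make amino acids, Psat1 (1.34) and Phgdh (0.70) in serine synthesis and Asns (0.47) in asparagine synthesis, and Ddit3 (CHOP) fell by 0.67. Under cyclic loess 6 rose and 6 fell. Of 16 glutathione genes and NRF2 targets 4 rose and 6 fell. Beside Gsta4 these rises included Slc7a11, the cystine importer, from 7.50 to 9.04, and the quinone reductase Nqo1, from 6.49 to 7.84.

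The net change passed through the middle arrays in different ways. In the PDGF-AB step at passage 5, 5772 genes were called (28.9%), 278 of them at least 2-fold (1.39%), and in the passage step under PDGF-AB 9169 (46%), 1049 at least 2-fold (5.26%). The early arrays enter both the treatment step and the net change, the late arrays both the passage step and the net change, and error in the middle arrays enters the steps with opposite sign, so values are set side by side and not correlated. Mitosis genes fell and then rose. Their list median was -1.12 in the treatment step, with 23 of 24 lower, and 2.96 in the passage step, with 24 of 24 higher. The replication list went -0.69 and then 2.15. Bub1, a spindle checkpoint kinase, read 6.20, 6.29 and 6.20 early, 4.57, 4.78 and 4.37 in the middle and 8.89, 8.78 and 8.89 late, lowest in the middle and highest at the end. Other genes that fell and then rose ended below their start: the calcium-binding Anxa8 went from 9.98 to 6.86 and 9.19, the gap junction protein Gja1 from 9.33 to 7.18 and 8.99, and the proteoglycan Ogn from 10.60 to 7.39 and 8.96. Gatm, which makes the precursor of creatine, ended above it (8.51, 6.76 and 9.86), and the adhesion molecule Clmp near it (net change 0.0446, limma, adjusted p = 0.57).

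Genes that rose and then fell included Igf2, with middle arrays at 7.81, 7.70 and 7.67 against early arrays at 5.61, 5.50 and 5.65 and late arrays at 5.33, 5.53 and 5.59. Early and late arrays overlapped and the middle arrays lay above both. Rasl11b went from 6.70 to 8.80 and 6.11, Fstl4 from 7.05 to 8.91 and 5.42, Clca3a1 from 7.38 to 9.83 and 7.81, and the vasodilator peptide gene Adm from 8.49 to 10.02 and 8.22. The myosin light chain Myl9 went from 10.66 to 12.21 and 10.47. Stepwise rises were those of Npnt, S1pr3, Gsta4, Zic2, Nqo1 and Tdrkh, a protein of the piRNA pathway, which read 4.90, 5.02 and 4.94 early, 5.81, 5.65 and 5.57 in the middle and 6.84, 6.87 and 6.78 late. Stepwise falls were those of Mmp3, Npy4r, Plxdc2, Lum, the matricellular protein Ccn3 (net -3.13) and the transporter Slc16a4 (net -2.97). All of these genes were chosen for these paths, so the paths are a description.

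**Figure D3:**
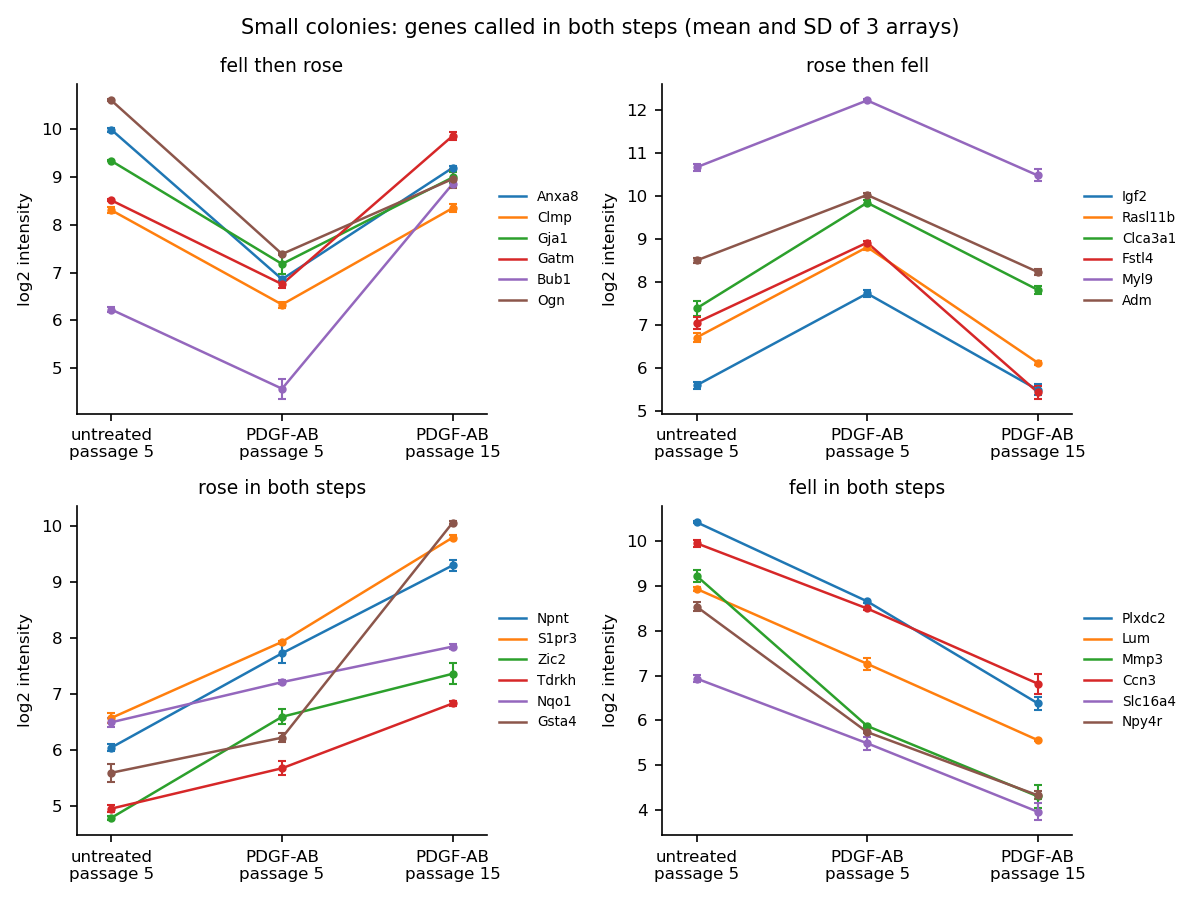
Mean log2 intensity of 3 arrays with SD (vertical axis) in untreated passage 5, PDGF-AB passage 5 and PDGF-AB passage 15 small colonies, for the 6 genes with the widest changes of each path. The upper panels show genes that turned, such as Bub1 and Igf2, and the lower panels genes that moved the same way in both steps, such as S1pr3 and Lum.

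**Figure D4:**
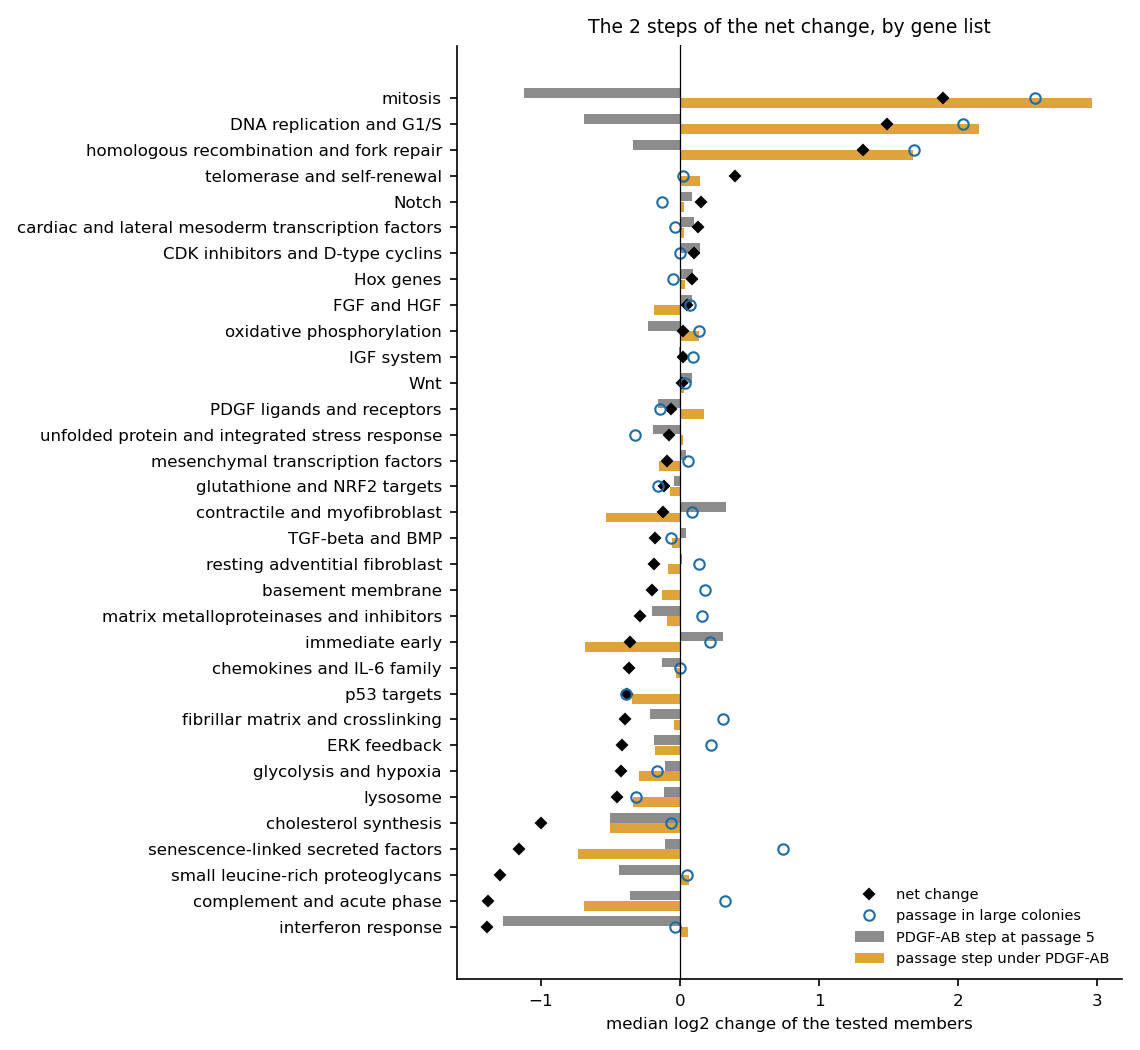
Median log2 change of the tested members of 33 lists (horizontal axis) in the PDGF-AB step (grey bars), the passage step under PDGF-AB (orange bars), the net change (diamonds) and the passage change of large colonies (open circles). Mitosis genes fell in the treatment step and rose in the passage step, and the interferon list fell in the treatment step with a passage step near 0.

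Large colonies taken from passage 5 to 15 without treatment share no array with this comparison. Their passage change was called in 7196 genes (36.1%), 3477 higher (17.4%) and 3719 lower (18.7%), and across 19938 genes it correlated with the net change at r = 0.316, a description over genes, which are not independent replicates and which share the array's probes. At least 2-fold, 516 genes rose (2.59%) and 235 fell (1.18%) in large colonies. The rises of both colony types shared 227 genes, 63.1% of the small-colony list and 44.0% of the large-colony list, and the falls shared 77, 12.7% and 32.8%. The difference of the changes was itself called in 9148 genes (45.9%), 4892 of them higher (24.5%) and 4256 lower (21.3%). Colony type and PDGF-AB differ together in it. Cell division genes rose in large colonies too, with medians of 2.55 for mitosis and 2.04 for replication, and there the rise was larger for 17 of 24 mitosis genes and 21 of 26 replication genes by the test of the difference, against 1 and 2 the other way. Ccna2 rose by 4.22 in large colonies, from 5.39 to 9.61, against 3.01 in small colonies.

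The senescence-linked secreted factors had a median of 0.74 in large colonies, where 9 were called higher and 4 lower, and of -1.16 in small ones, with 13 of 16 lower in the difference and 2 higher. Il6 fell in both, by 1.44 in large and by 2.82 in small colonies. Mmp3 was at 5.69 in large colonies at passage 5 and at 8.81 at passage 15, a rise of 3.12, where the small colonies fell by 4.92. The difference was -8.04 (SE 0.143; limma, adjusted p = 4.83e-16). Npy4r, Tmem176b, its neighbour Tmem176a, Mmp13, the interleukin-13 receptor chain Il13ra1, the phosphoglucomutase relative Pgm5 and Lama4 also rose in large and fell in small colonies, with differences of -7.15 to -5.59. In all 49 genes fell at least 2-fold in small and rose at least 2-fold in large colonies, and 6 did the opposite. Pdgfra rose in large colonies from 6.58 to 8.84, and the difference from the small colonies was -2.29 (limma, adjusted p = 1.95e-10). Sterol genes were lower by the difference in 15 of 16 and interferon genes in 15 of 19. Their large-colony medians were -0.06 and -0.03. Tcf21 changed by -0.06 in large colonies (limma, adjusted p = 0.66), with a difference of -3.39. In the other direction Pip changed by 0.03 in large colonies, where it stayed at 2.67 and 2.70, and Efemp1, the matrix protein fibulin-3, fell by 3.54 there and rose by 0.26 in small colonies.

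**Figure D5:**
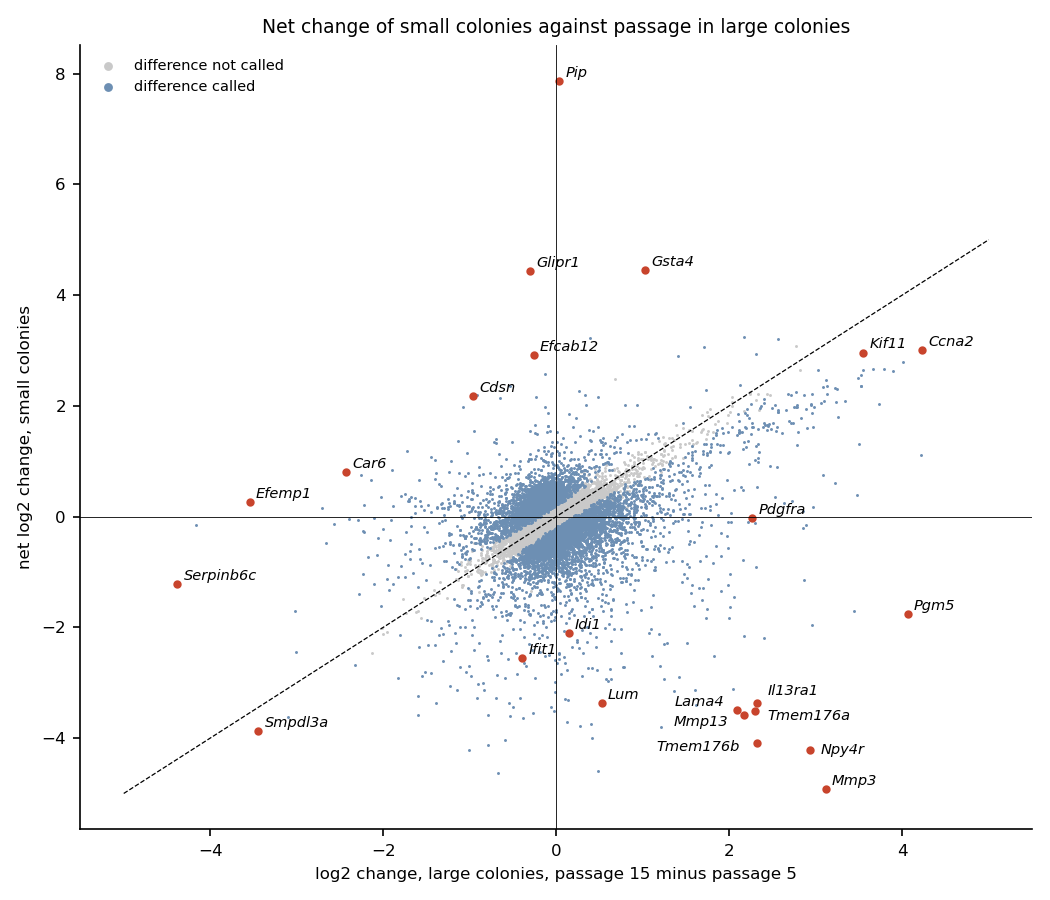
Net log2 change of small colonies (vertical axis) against the passage change of large colonies (horizontal axis), 1 point per gene, blue where the difference was called and grey where not, with the dashed line at equal change. Named genes in red include Pip, Gsta4 and Glipr1 above, Ccna2 and Kif11 to the right below the line, and Mmp3, Npy4r and Tmem176b at the lower right.

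The median net change differed between chromosomes, given here as a chromosome's median minus that of all genes, both among genes whose level reached the median. On chromosome 15, 264 of 410 genes were called lower (64.4%) and 50 higher (12.2%), a relative median of -0.21, and on chromosome 14 the counts were 209 (63.0%) and 43 of 332, a relative median of -0.19. Chromosome 4 was shifted the other way, by 0.15, with 215 of 601 higher (35.8%) and 176 lower, and chromosome 7 by 0.11. Chromosome 16 had a relative median of -0.20 in the treatment step and 0.17 in the passage step, and 0.00681 net. Among genes at or above the median level 2352 of 9969 were called higher and 4274 lower.

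Markers of other cell types moved in both directions. Of all 9969 genes below the median level 3557 were called higher and 718 lower. Of the 9969 at or above it 2352 were called higher and 4274 lower. Endothelial markers were called 9 of 10 higher and 0 lower, 2 higher under cyclic loess, and all lay below the median gene, with a summed level of 45.5 to 46.5 early and 48.6 to 49.4 late. Pecam1 rose by 0.28, a call lost under cyclic loess (adjusted p = 0.201). Cardiomyocyte markers were called 5 of 12 higher and 1 lower, 1 higher under cyclic loess, with Tnnt2, cardiac troponin T, down by 0.53 and the heavy chain Myh6 at 4.91 and 5.08, and a summed level of 63.8 to 65.2 and 65.7 to 66.3. Smooth muscle and pericyte markers were called 3 of 10 higher and 3 lower (sums 56.7 to 57.0 and 57.7 to 58.4). Cspg4, the pericyte proteoglycan NG2, rose from 7.01 to 9.03 (4.06-fold) and Rgs5 fell by 0.77. Epicardial and mesothelial markers were called 3 of 12 higher and 5 lower (sums 68.9 to 69.6 and 64.6 to 65.7), with Upk3b down by 2.32 and Bnc1 by 2.01, Msln up by 0.68 and Wt1 at 5.74 and 5.94. Bone and cartilage markers were called 5 of 9 higher and 0 lower (sums 45.6 to 46.6 and 49.4 to 49.8), led by the chondrogenic factor Sox9, which rose from 6.60 to 7.99. Adipocyte markers were called 2 of 8 higher and 2 lower, with Pparg down by 0.61, and Schwann and neural markers 3 of 7 higher and 1 lower, with Nes down by 0.72. Fibroblast markers were called 2 of 13 higher and 7 lower (median -0.42), Lum, Tcf21, Dcn (0.92) and Postn falling and the collagen receptor Ddr2 rising by 0.52. Of these 13, 12 lie at or above the median level. The part of other cells in the net change was not tested.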

How the data were processed

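RNA of 15 samples was measured on Affymetrix mouse gene arrays, 1 array each. Per the labels, total RNA was labelled with the Affymetrix WT kit. The authors deposited log2 values of 28853 probe sets, made with RMA, which the submitters' processing notes list beside limma, both unversioned. Raw scans were not used here. The platform annotation gave 21789 of them 1 gene symbol and 1621 several, together 23410, and did not list 5443. Probe sets of 1 gene were kept, and for 999 genes with several the one with the highest mean over all arrays, leaving 19938 genes. Of the 21789 probe sets of 1 gene, before that choice, 21698 were matched to RefSeq (GRCm38.p6).

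Groups came from the labels. limma 3.58.1 (R 4.3.3) was fitted over all 15 arrays (10 residual and 5.80 prior degrees of freedom), with 2-sided moderated tests and Benjamini-Hochberg adjustment over 19938 genes (threshold 0.05). For the net change the median SE over genes was 0.0778. The number of arrays, 3 a group, limits the precision. The fit of the net change was tested on simulated data with 50 genes changed at each of several sizes. Of log2 changes of 0.25, 46% were called, of 0.5, 82%, and of 1 and of 2, 100%. Another 15 unchanged genes were called. The simulation used independent normal noise and far fewer changed genes than were called here.

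Members and gene lists were chosen with earlier results of these data known. In 43 lists 626 of 664 genes were tested. Another 5 shared a probe set with other genes, and 33 had none. Named genes were the 12 largest rises and falls whose groups did not overlap, each list's 4 smallest adjusted p-values (fewer where fewer were called) and its exceptions, fixed genes (PDGF genes, Mki67, Cdkn2a, Cdkn2b, Pecam1, Tcf21, Tbx20, Gata4, Il6, Acta2, Col1a1 and Pip), the 6 widest of each path through the middle arrays and the 8 largest differences from large colonies in each direction. Predicted genes and small RNAs were left out. Top2a and Hmgcs1 are shown for their promoters, and Epcam, Ptprc, Adgre1, Myh6, Wt1, Anln, Tert, Timp1, Mmp9, Ifit1, Ccl20, Cxcl1 and Ddr2 were named after their values were seen.

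Alternatives were centring on array medians, cyclic loess, testing only genes at or above the median level, every probe set on its own, averaging a gene's probe sets, the compared arrays alone, trend and robust moderation, array weights, a replicate block, testing against a 1.5-fold change, and dropping single arrays.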

Additional observations from a re-analysis of the deposited data

Results flagged for a closer look

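The change from early to late small colonies and the passage change of large colonies differed by limma's test of the difference in 9148 genes, each value below being the small-colony change minus the large-colony change on the log2 scale. Colony type and PDGF-AB cannot be told apart in it.

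Genes whose small-colony change was higher than the large-colony change included Pip (7.83), Glipr1 (4.75), Efemp1 (3.80) and Gsta4 (3.43). They also included Car6 (3.24), a secreted carbonic anhydrase, Efcab12 (3.18), the serpin Serpinb6c (3.16) and Cdsn (3.13), which encodes corneodesmosin. Genes whose small-colony change was lower included Mmp3 (-8.04), Npy4r (-7.15), Tmem176b (-6.40), Pgm5 (-5.83), Tmem176a (-5.81), Mmp13 (-5.76), Il13ra1 (-5.69) and Lama4 (-5.59). These differences do not rank the end levels: Glipr1 ended at 10.57 in small and at 11.67 in large colonies.

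Of the genes followed in every group, the cardiac fibroblast factor Tcf21 differed by -3.39, the receptor Pdgfra by -2.29, Tbx20 by -1.55, Il6 by -1.38, Col1a1 by -1.29, Gata4 by -0.60, Mki67 by -0.52, Pdgfrb by -0.43 and Pdgfc by -0.22. The ligand gene Pdgfd differed by 1.38, Cdkn2a by 0.66, Cdkn2b by 0.45, Pecam1 by 0.44, Pdgfb by 0.41 and Pdgfa by 0.30. Under cyclic loess the differences of Pdgfb, Pdgfc and Pecam1 no longer passed the threshold (adjusted p = 0.206, 0.259 and 0.0984). That of Pdgfb was also lost with array weights (0.0525) and without any 1 of 5 arrays (0.0729 to 0.0921), and that of Pdgfc without any 1 of 4 (0.0513 to 0.0625). None of the 3 passed when tested against 1.5-fold.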

How the results depend on the processing

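Testing only genes at or above the median level gave 6974 net calls, 2513 of them higher, and 5724 in the difference from large colonies. Tested against 1.5-fold, 1359 genes were called in the net change (477 higher and 882 lower), 353 in the PDGF-AB step, 1499 in the passage step, 1023 in large colonies and 1101 in the difference. The other settings kept each count of all genes within 1.5 times. With each array left out in turn the net change had 9355 to 10576 calls, 4835 to 5596 higher and 4520 to 4980 lower, and 941 to 990 of at least 2-fold.

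Of 3311 net values of 210 named genes under these settings 3184 kept their direction and side of the threshold, 116 fell short of it, 8 newly passed it and 3 changed sign. Those were Pdgfra under cyclic loess (0.0250) and without the second early array, and Igf2 under cyclic loess (0.00317), none of them called. With each array left out in turn Pdgfra ranged from -0.0719 to 0.0336. The cause was not tested. Calls of Lep, S100b, Fabp4 and Myl9 were lost in several settings.

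Replicate numbers were not taken as pairs. After subtraction of group means, early and late arrays of the same number correlated at 0.0204, -0.0625 and -0.0465, and 0 of 3 matched best with their own number. In the PDGF-AB step 1 of 3 did (0.197) and in the passage step 0 of 3. Large-colony arrays correlated at 0.208, 0.0984 and 0.202, and 3 of 3 matched best with their own number, a hint from the data and not from the labels. With the replicate number as a block the net change had 10941 calls, 967 of them at least 2-fold, the passage change of large colonies 7242 and the difference 9183. The low end of the values was higher on the late arrays, and its part in small rises of genes near background was not tested.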
